A study of Drosophila melanogaster with 2 samples.

Results

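Tlk (FBgn0283657) is the Drosophila gene of the Tousled-like kinase. It was described here across the peak lists of a chromatin immunoprecipitation sequencing (ChIP-seq) experiment on danr, and it is 1 of 13968 protein-coding genes on the main chromosomes. It was chosen by its number of danr regions in these lists, so its count and density of regions are a description and carry no test. The gene and 5 kb upstream of it held 9 of the 2653 regions of the series. The samples were whole embryos, 0 to 24 h old, of a transgenic fly line in which danr (distal antenna-related) is fused to eGFP, and the precipitation used an antibody against GFP, per the sample descriptions, although the antibody field of the labels names danr. The 2 biological replicates, with 1 technical replicate each, make up the only group, so no other genotype, treatment or stage stands beside it. Control libraries named in the labels were not analysed here.

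Tousled-like kinases are serine/threonine kinases of the nucleus. In flies and in human cells they phosphorylate the histone chaperone Asf1, which hands histones H3 and H4 to the chromatin assembly factors behind the replication fork. Human Tousled-like kinases are most active in S phase, and Drosophila Tlk is needed for nuclear division in the embryo. The danr protein is nuclear, binds DNA through a domain of the pipsqueak family and acts in eye and antenna development together with its paralog dan. Whole embryos mix all cell types and stages, so a weak signal in every cell and a strong signal in a few cells cannot be told apart.

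Tlk lies on the forward strand of X at chrX:3720007-3789770 (dm6) and spans 69.8 kb. The annotation lists 14 transcripts from 8 start sites, which lie between 0 and 60.1 kb from the first one. Exons of any transcript fill 16.6% of the span, and 6 exons are common to all 14 transcripts. The first of these common exons starts 61.6 kb from the first start site, so most of the gene consists of introns and alternative first exons. Ranked lists hold peaks of low and high score, and the thresholded list of the whole series holds only peaks with scores of at least 830. That score is called the limit for the other lists as well. Whether the ranked lists hold every peak of a call was not tested. The ranked list of the whole series that holds every thresholded peak is called pooled. A region is a run of overlapping peaks of a thresholded list, and its summit is that of its strongest peak. The 9 regions are numbered 1 to 9 along the gene, in the direction of transcription.

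The sequences of the 5 strongest regions, which are also the 5 found past the threshold in both replicates, are shown to let the sites be read beside their values. All are from the forward strand of the reference genome (dm6, credited to RefSeq) and run 5′ to 3′. Region 1, the strongest, is printed whole (253 bases, chrX:3742094-3742346), and the others as the 101 bases centred on the summit. Capitals mark each match, on either strand, to 9 short motifs. These were TATAAA (the TATA box core), TATCGATA (the site of the replication-related factor DREF), TAATTA (a homeodomain core), ACAAT (a Sox core), GAGAG (the GAGA core), AAAAAAA (an A tract) and the E-boxes CATATG (bound by Twist), CAGCTG (as an E-box of other bHLH factors) and CACGTG (as that of Myc). Matches can overlap, and a match is a description of letters.
Region 1: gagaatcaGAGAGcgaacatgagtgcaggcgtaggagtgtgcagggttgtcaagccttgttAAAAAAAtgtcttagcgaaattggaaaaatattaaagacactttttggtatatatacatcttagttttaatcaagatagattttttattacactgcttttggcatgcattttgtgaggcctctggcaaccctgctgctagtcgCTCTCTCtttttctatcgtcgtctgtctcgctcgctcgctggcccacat
Region 2: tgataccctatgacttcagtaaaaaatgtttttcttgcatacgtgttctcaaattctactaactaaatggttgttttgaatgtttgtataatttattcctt
Region 3: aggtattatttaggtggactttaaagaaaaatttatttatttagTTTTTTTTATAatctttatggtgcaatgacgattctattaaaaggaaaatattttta
Region 5: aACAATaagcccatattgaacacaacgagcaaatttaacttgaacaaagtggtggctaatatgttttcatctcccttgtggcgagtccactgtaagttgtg
Region 9: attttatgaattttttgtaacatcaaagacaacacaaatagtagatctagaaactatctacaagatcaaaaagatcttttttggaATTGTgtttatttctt
Regions 2, 3, 5 and 9 are the windows chrX:3743582-3743682, chrX:3744145-3744245, chrX:3750725-3750825 and chrX:3774399-3774499. The window of region 2 held none of the 9 motifs. In region 3 the A tract and the TATA box core lie within 6 bases of the summit, on the reverse strand. In regions 5 and 9 the only match is a Sox core, 49 bases before and 35 bases after the summit.

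Every region of Tlk had its summit in an intron, and none lay within 500 bp of any annotated start site. Across the series, 37.3% of the 2632 regions on the main chromosomes had intronic summits by the same rule and 46.5% were within 500 bp of a start site. Introns away from start sites make up 76.3% of the searched sequence at Tlk, and promoters by this rule make up 13.1%. The summits of regions 8 and 4 were nearest to start sites, at 834 bp downstream and 573 bp upstream. The others lay between 1610 and 10801 bp away. No region had its summit in coding sequence. Coding sequence of any gene, outside promoters and 5′ untranslated regions, makes up 6.06% of the searched sequence.

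The regions were confined to the middle of the gene in the list of the whole series. The first summit lay 22.2 kb from the first start site and the last lay 7.21 kb before the first common exon, and the distance between them was 32.2 kb, or 46.2% of the span. Regions 1 to 5 lay within 8.55 kb, which is 12.3% of the span. The median distance of a Tlk region to its nearest neighbour was 1.4 kb, against 8.27 kb over all regions, and 14.3% of the regions of the series had a neighbour as near as that. This spacing draws on the regions by which Tlk was chosen, so it is a description and carries no test. Outside Tlk the next summits on X lay 49.9 kb before the first Tlk summit and 64.3 kb after the last, which are not distances from the gene ends.

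**Figure D1:**
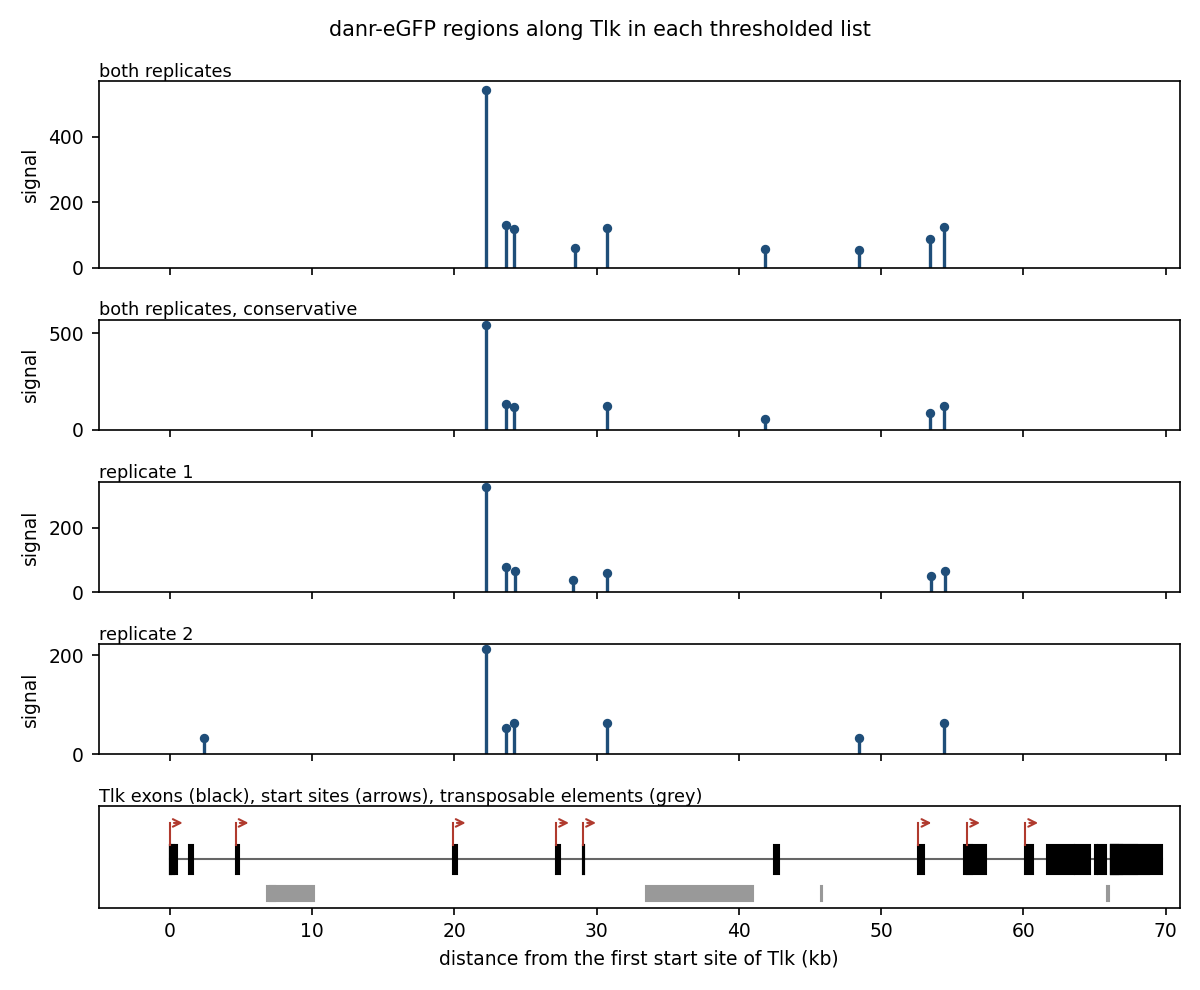
Signal (vertical axis, the authors' enrichment value) of each danr-eGFP region against the distance of its summit from the first start site of Tlk (horizontal axis, kb), in the 4 thresholded lists, above the exons, start sites and annotated transposable elements of the gene. Each stem is 1 region, and the vertical axes differ between panels. The region at 22.2 kb stands highest in every panel, with 544 in the list of both replicates.

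Of the gaps between exons, the one with the strongest region held the most. This stretch of 6.96 kb, from 3740205 to 3747162, held regions 1, 2 and 3. It lies inside 8 of the transcripts and upstream of the start sites of the other 6. The next gap, of 1.63 kb, held region 4, and the gap of 13.4 kb after it held regions 5 and 6. Region 7 lay in a gap of 9.78 kb, and regions 8 and 9 shared a gap of 2.78 kb, which is inside 12 transcripts. The longest gap, of 15.0 kb, lies before the third start site and held no region of the series list.

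Annotated transposable elements cover 14.8% of the searched sequence (11.1 kb). The longest is a 17.6 element of 7.5 kb in the gap that holds regions 5 and 6, and FB elements lie in the 15.0 kb gap. No peak of the pooled ranked list, at any score, had its summit in an element. Whether reads can be placed there was not tested. Without the elements, Tlk had 1.41 regions per 10 kb.

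Signal is read, after the peak format, as the authors' enrichment value of a peak, and the score as a measure derived from the irreproducible discovery rate (IDR). The thresholded list of the whole series, made from both replicates, gives the signals below, and replicate values come from the strongest overlapping peak of each replicate's ranked list. Read depth is unknown from these lists, so no interval from counts is given. Each list has its own scale, so the ratio of the replicates at Tlk is read beside that over all regions.

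Region 1 was the strongest by far within Tlk. Its signal of 544 ranked 31 of 2653, and 6 of the 981 intronic regions. It was 4.12 times the signal of the next strongest region of the gene. In replicate 1 it reached 327, which ranked 20 among 73075 peaks. In replicate 2 it reached 212, which ranked 71 among 99556 peaks. The summits in the replicates lay 6 and 1 bp from that of the series, and the peak was 253 bp long, shorter than the 344 bp that 91.4% of the thresholded peaks have. Its window of 101 bases held no motif of the list. The whole peak held a GAGA core 126 bases before the summit and overlapping ones 70 and 72 bases after it, and an A tract 73 bases before it. Of all regions, 28.9% had the GAGA core and 30.5% the A tract in windows of that length.

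Regions 2 and 3 followed within 2 kb of it. Region 2 (chrX:3743460-3743803) had 132 as its signal, with 78.4 in replicate 1 and 53.5 in replicate 2. Region 3 (chrX:3744023-3744366) had 120, with 64.4 in replicate 1 and 63.7 in replicate 2. Both were past the threshold in each replicate with the top score of 1000. Their ranks, 625 and 736, put them in the upper 27.7% of the series.

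Regions 5 and 9 had much the same strength as these. Region 5 (chrX:3750603-3750946) had 122 as its signal, with 58.8 in replicate 1 and 63.7 in replicate 2. Region 9 (chrX:3774277-3774620) had 126, with 64.9 in replicate 1 and 63.0 in replicate 2. The replicates gave nearly equal signals at regions 3, 5 and 9, with ratios of replicate 1 to replicate 2 between 0.923 and 1.03. Region 5 lies 1714 bp downstream of the fifth start site, and region 9 lies 1610 bp upstream of the seventh.

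The remaining regions were weaker and were past the threshold in at most 1 replicate. Region 8 (chrX:3773302-3773645) had 87.1 as its signal, with 50.8 in replicate 1 and 36.4 in replicate 2. Its peak in replicate 2 had a score of 830, at the limit, and was not in the thresholded list of that replicate. Region 4 (chrX:3748316-3748659) had 61.8, with 36.9 in replicate 1 and 24.8 in replicate 2, where its score was 264. Region 7 (chrX:3768252-3768595) had 54.0, with 21.5 in replicate 1 at a score of 245 and 33.7 in replicate 2, and was past the threshold in replicate 2 alone. Region 6 (chrX:3761667-3762212) had 58.5, with 34.2 in replicate 1 and 24.8 in replicate 2, and was past the threshold in neither. It was nevertheless in the conservative list, which held all regions but 4 and 7. Regions 4, 6 and 7 ranked 2004, 2131 and 2329 of 2653.

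**Figure D2:**
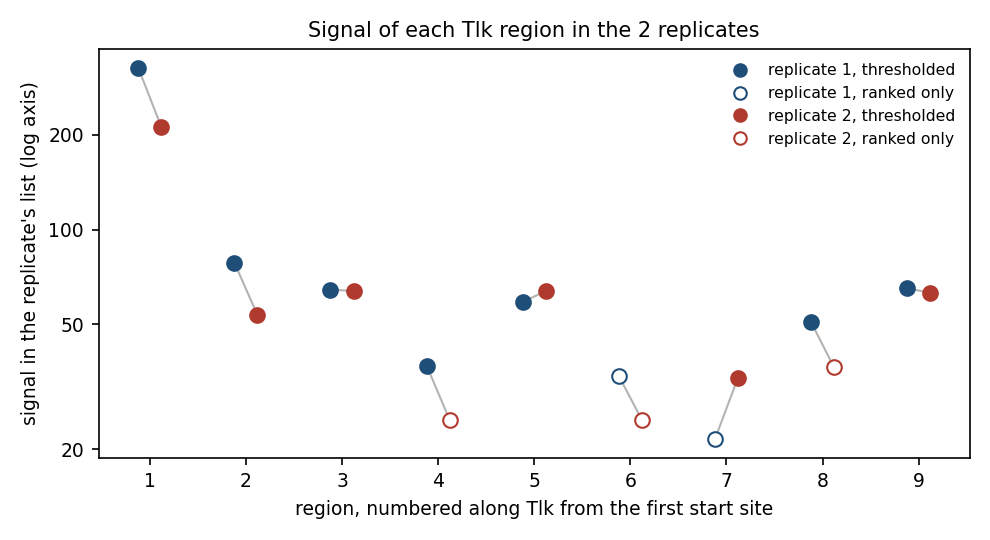
Signal (vertical axis, log scale) of the strongest overlapping peak in replicate 1 (blue) and replicate 2 (red) at each of the 9 Tlk regions (horizontal axis). Filled points are past the threshold in that replicate and open points are in its ranked list only. Region 1 is highest in both, with 327 and 212, and regions 4, 6, 7 and 8 have at least 1 open point.

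In all, 5 of the 9 regions were past the threshold in both replicates. The share over the series was 39.9% of 2653 regions and 36.8% of the intronic ones. Another 2 were past it in replicate 1 alone, 1 in replicate 2 alone and 1 in neither. All 9 had an overlapping ranked peak in each replicate, as did 2484 of the 2632 regions on the main chromosomes. The signal in replicate 1 was a median of 1.38 times that in replicate 2, with a range of 0.637 to 1.54. Over the 2484 regions with a peak in each, the median ratio was 1.06 (quartiles 0.771 to 1.42, range 0.0674 to 16.6). Across the 9 regions, Spearman's rho between the replicates was 0.77, and across the 2484 it was 0.59. Regions of a list share their libraries, so this is a description.

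The median signal of the Tlk regions was 120 (quartiles 61.8 to 126). The median over all regions was 82.8 (62.1 to 126) and over intronic regions 77.6 (59.7 to 115). Of the 9, 6 were above the median of the series. Each replicate alone gave 7 regions in Tlk. Replicate 1 had a median signal of 64.4 there and 58.0 over its whole list, and replicate 2 had 63.0 there and 57.8 over its whole list.

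Peaks below the threshold showed a different layout. The pooled ranked list held 72 peaks with a summit at Tlk, of which 10 were past the threshold and made up the 9 regions. That is 13.9% of the ranked peaks at Tlk, against 2.04% over the whole list. This share draws on the regions by which Tlk was chosen, so it is a description and carries no test. The other 62 peaks had a median signal of 14.0. Of these, 32 lay before the first region, 19 between the first and the last and 11 after the last, and so they lay over the whole gene. Tlk had 9.63 ranked peaks per 10 kb, and the median over 177 genes of similar length was 11.0 (quartiles 9.40 to 12), with 129 of them above Tlk.

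The threshold acts on the score, not on the signal. Region 6 had the lowest score inside, 911. The highest score outside was 757, for a peak with a signal of 42.0 whose summit lay 1107 bp from the nearest region. A peak with a higher signal, 66.9, was also outside, with a score of 40, and it overlapped region 3. In the thresholded lists, single peaks with a signal of 2.98 in the series and 3.6 in replicate 1 were inside, with scores of 911 and 1000. The first of these was merged into region 6.

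A region near the first start site was past the threshold in replicate 2 alone. It lay at chrX:3722262-3722581, 2.42 kb downstream of the first start site, with a signal of 32.7 and a score of 851. No ranked peak overlapped it in replicate 1. In the pooled ranked list it had a signal of 42.0 and a score of 549, so it is not among the 9.

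The start sites themselves had weak peaks at most. Within 500 bp of the first, which is used by 6 transcripts, the strongest pooled peak had a signal of 20.8 and a score of 79. Within the same distance the strongest peak had 17.0 in replicate 1 and 12.6 in replicate 2. The fourth start site had the strongest pooled peak of the 8, with 24.9, and there replicate 1 had 20.1 and replicate 2 had 10.8. At the eighth, the start site nearest to the common exons, the pooled list held none and replicate 1 had 12. The scores of the strongest pooled peaks at the other 7 lay between 19 and 81. At the fifth start site replicate 1 had a higher score, 587, for a peak with a signal of 12.7. These scores are below the limit of 830.

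Among genes of like length Tlk had the most regions per 10 kb in the thresholded list of the series. Its rank was 3 in the conservative list, 2 without replicate 1 and 1 without replicate 2. It had 1.2 regions per 10 kb, and the 177 other protein-coding genes with a span within 25% of it, from 52.4 to 86.6 kb, averaged 0.174 (median 0.122, highest 1.19). Of these genes, 80 had no region (45.2%), 74 had 1 or 2, 18 had 3 to 5 and 5 had 6 or more. On X alone there were 38 such genes, which averaged 1.13 regions each, with 8 as the highest. By number of regions alone Tlk ranked 5 among all protein-coding genes, after kirre and CG1677 with 11 each and sbb and CHES-1-like with 10 each. Raf, a gene of 48.4 kb, encodes a kinase of the MAP kinase cascade. It had 8 regions and, at 1.5, more per 10 kb than Tlk, but lies outside the range of length. CHES-1-like, at 27 kb, also lies outside that range and had 3.12 per 10 kb.

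**Figure D3:**
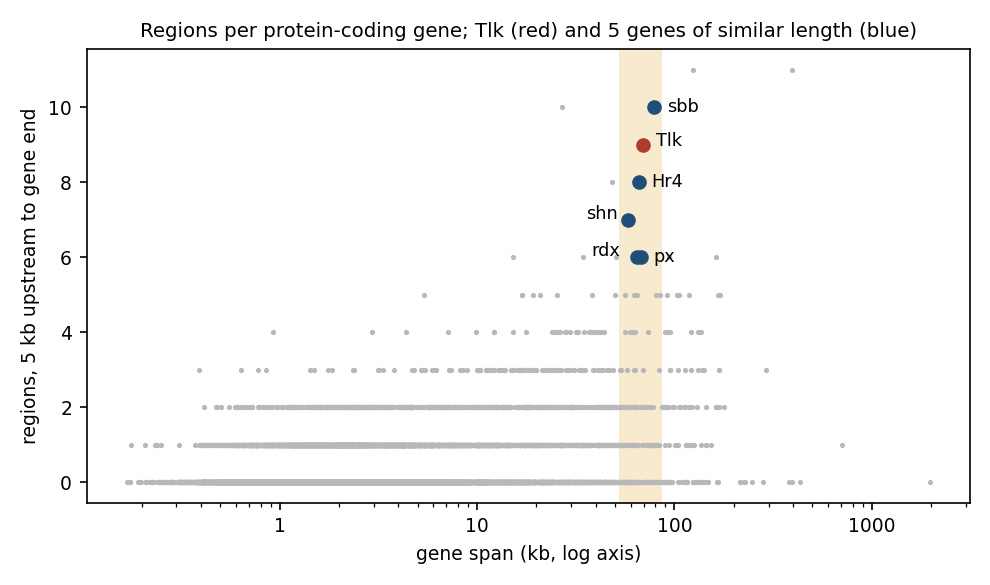
Number of regions, counted with 5 kb upstream (vertical axis), against gene span (horizontal axis, kb, log scale) for 13968 protein-coding genes. Tlk is red, the 5 genes of similar length with the most regions are blue and the shaded band is 52.4 to 86.6 kb. Tlk has 9 regions, sbb 10 and Hr4 8, and most genes in the band have 0 to 2.

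The 5 genes most like Tlk by number of regions within that band were sbb with 10, Hr4 with 8, shn with 7, and rdx and px with 6 each. sbb (scribbler) and shn (schnurri) encode nuclear regulators, Hr4 a nuclear receptor, rdx (roadkill) an adaptor of a ubiquitin ligase and px (plexus) a nuclear protein of wing vein patterning. As at Tlk, most of their regions were intronic, with 9 of 10 at sbb, 7 of 8 at Hr4, all 7 at shn and 4 of 6 at rdx and at px. Within 500 bp of a start site, rdx and px had 2 regions each, sbb and Hr4 1 each and shn none. The strongest region of Tlk, at 544, was above those of sbb (270), Hr4 (229), shn (209) and rdx (198), and below that of px (710). Hr4 also had 5 summits within 10 kb, the only one of the 177 genes with as many as Tlk. Regions past the threshold in both replicates numbered 5 at Tlk, 5 at sbb and 2 or 3 at each of the other 4.

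The genes on either side had no region in the list of the whole series. Rala, which encodes a small GTPase, starts 371 bp before Tlk and runs the other way, so the 5 kb upstream of Tlk lie within Rala for the most part. The strongest ranked peak of Rala, counted with 5 kb upstream, had a signal of 42 and a score of 549. It is the pooled peak at the region past the threshold in replicate 2 alone, which thus lies upstream of Rala as well. HIP-R lies 198 bp beyond the end of Tlk, and its strongest ranked peak had a signal of 12.2. The microRNA gene mir-4962 lies within Tlk, and regions 8 and 9 fall into the 5 kb upstream of it as well. To which of these genes a region belongs cannot be told from position.

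The sequence at the Tlk summits was rich in A and T. The mean A+T content of the 101-base window was 71.3% ± 5.71 (SD over 9 windows), against 66.8% ± 9.37 over all 2632 regions and 66.9% ± 8.31 over the 981 intronic ones. In windows 1000 bp to either side it was 59.4% at Tlk, 57.7% over all regions and 59.6% over intronic ones. The introns of Tlk as a whole had 62.1% and its exons 57.1%. The summit exceeded its flanks in 7 of 9 regions at Tlk, and in 79.6% of all regions. The exceptions were region 5, with 60.4% at the summit and 72.8% in the flanks, and region 8, with 66.3% and 67.3%. Regions 8 and 9 lie so close that 1 flank window of each falls 25 bp from the summit of the other.

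**Figure D4:**
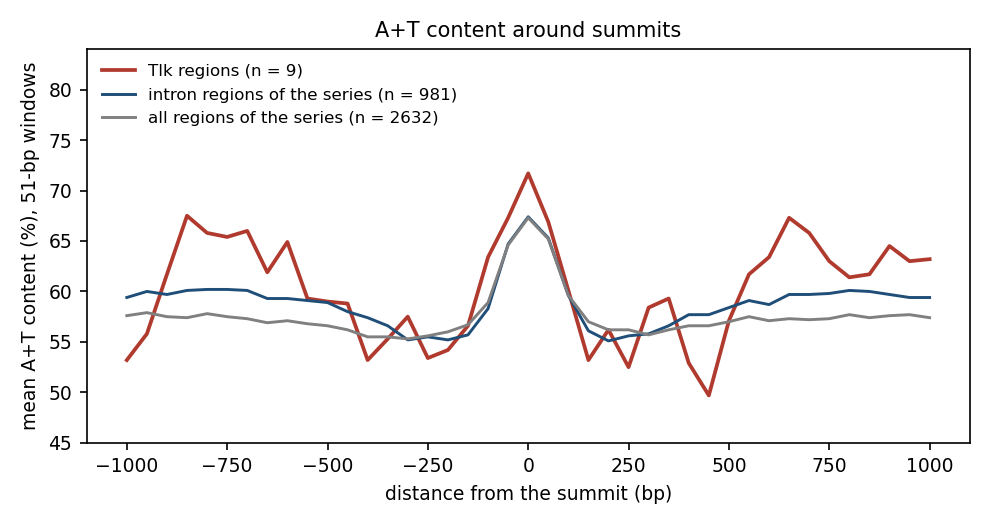
Mean A+T content (vertical axis, %) of 51-base windows against distance from the summit (horizontal axis, bp) for the 9 Tlk regions (red), 981 intronic regions (blue) and all 2632 regions (grey). At the summit the means are 71.7% at Tlk, 67.4% for intronic regions and 67.3% for all regions, and the line of the 9 regions is the most uneven.

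The motif counts at Tlk were small. In the 101-base windows the Sox core occurred in 4 of 9 regions (4, 5, 8 and 9), against 30.9% of all regions. The TATA box core occurred in 3 (3, 4 and 7), against 23.2%, and the A tract in 3 (3, 4 and 6), against 14.3%. The homeodomain core occurred in region 7 alone, against 9.5% of all regions. The DREF site, the E-boxes and the GAGA core occurred in none of the 9 windows, and in 0.988%, 0.570% to 4.41% and 9.08% of all windows. Region 4 had the most matches, 4, and regions 1 and 2 had none. No stretch over 11 bp was shared by any pair of the 9 windows.

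Genes that act beside Tousled-like kinases were read from a pair of lists, of chromatin assembly and of the S-phase checkpoint. Of 17 chromatin assembly genes, 5 had a region between 5 kb upstream and the gene end (29.4%), against 24.2% of all protein-coding genes. They were Spt6, Daxx, His3.3A, dre4 and PCNA. asf1, the substrate of the kinase, had none, nor did the genes of the CAF-1 subunits, nor Hira. The other members with none were yem, His3.3B, XNP, Nap1, Ssrp, Nlp and Mcm2. At Daxx, which encodes a partner of the histone variant H3.3, a region with a signal of 101 had its summit 155 bp from the start site, with 30.4 in replicate 1 and 72.4 in replicate 2. The strongest, at Spt6, the gene of a transcription elongation factor, had a signal of 243 and lay in an intron of schlank, as did the other region of Spt6, with 90.3. dre4, which encodes a subunit of the histone chaperone FACT, had a region of signal 53.0 with its summit 168 bp from its own start site, and another of 57.7 within CG13937. The single regions counted for His3.3A and PCNA lay within eIF3h and RpS18.

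Of 10 S-phase checkpoint genes, 6 had a region (60%), against the same 24.2%, and no test of the list was made. The gene of the ATR kinase, mei-41, had the strongest, at 234, and reached 96.3 in replicate 1 and 140 in replicate 2. tefu, the ATM kinase gene, followed with 110, and nbs with 74.3. lok, the Chk2 kinase gene, had 56.7, grp, the Chk1 kinase gene, 52.0, and PCNA, which is in both lists, 50.6. Several of these summits lay close to the start sites of neighbouring genes as well. The summit was 155 bp from the start of mei-41 and 105 bp from that of TH1, and 264 bp from tefu and 187 bp from Hsc70-4. It was 152 bp from nbs and 77 bp from defl, and 139 bp from lok and 87 bp from barr. The strongest grp summit lay within grp, 1003 bp from its start site and 379 bp from that of CG31807, and another region of grp, with 35.1, lay 441 bp from its own start site. At PCNA the summit was 1192 bp from its start site and 5 bp from that of RpS18. mre11, rad50, Claspin and mus304 had none. In replicate 1 alone 1 of the 17 and 1 of the 10 genes had a region, against 16.7% of all protein-coding genes, and in replicate 2 alone 4 of the 17 and 4 of the 10 did, against 16.4%. Counting summits no more than 1000 bp from the start site of the listed gene itself, 2 of the 17 and 5 of the 10 were counted, against 13.4%. With the gene body alone, none of the 17 and 1 of the 10 were, against 8.38%.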

How the data were processed

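ChIP-seq peak lists of 2 replicates were used, in dm6 coordinates per the deposited file descriptions. The authors deposited a ranked and a thresholded list for each replicate and, for both together, 2 ranked, a thresholded and a conservative list. Peak caller and aligner: not given in the sources used here. For each deposited peak, the signal was read as the authors' enrichment value and the score as a transform of the IDR, after the peak format. The deposited descriptions do not give reads per library, so depth is unknown.

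Peaks of a list overlapping by at least 1 bp were merged, and the peak of highest signal gave summit and signal. Summits were set against the Ensembl release 115 annotation, without transposable element entries, and the RefSeq genome of the same assembly. A region was assigned to a gene from 5 kb upstream to the gene end. The pooled ranked list was identified as the one that holds all 2799 thresholded peaks. Python 3.11.15, NumPy 2.4.6 and matplotlib 3.10.9 were used.

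Members, lists and motifs were chosen with earlier results of these data known. Named genes were Tlk, the 5 of similar length with the most regions, its neighbours and all members of both lists. Daxx stands for the list entry DLP. No tests were made, since the gene was selected on its region count. Alternatives covered other lists, replicates, windows and limits.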

Additional observations from a re-analysis of the deposited data

How the results depend on the processing

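Tlk had 7 regions in the conservative list and in each replicate alone, and 9 or 10 under the other counting rules. The 7 of replicate 2 included the one at 2.42 kb, which is not among the 9. Per 10 kb, Tlk had 0.936 in the conservative list and in each replicate alone, and 1.29 over the gene body. By regions per 10 kb it ranked 3 among genes of similar length in the conservative list, 2 without replicate 1 and 1 without replicate 2, and 2 among genes within 50% in length. The median signal was 122 in the conservative list, 63.0 without replicate 1, 64.4 without replicate 2, where signals are on another scale, and 103 with peaks counted one by one. All 9 regions had a ranked peak of any score in both replicates, as did 2484 of the 2632 regions on the main chromosomes. Of the 9, 7 were intronic with a promoter limit of 1000 bp. The mean A+T content was 69.7% without replicate 1, 70.7% without replicate 2 and 67.9% in windows of 100 bp either side. Of the chromatin assembly genes, 4 had a region without replicate 1, 1 without replicate 2, 2 within 1000 bp of their own start site and 0 in the gene body alone. The cause of these shifts was not tested. No paired analysis was possible because the series has 1 group. Unknown depth limits the statement for weak regions.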
